A study of Mus musculus with 4 samples.

Results

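The classical protein tyrosine phosphatases were taken as the genes of the deposited table named Ptpn followed by a number, Ptpr followed by a single letter, Ptprz1 or Ptprn2. This gave 38 of 51912 genes, 21 of the receptor class and 17 of the non-receptor class. RNA sequencing was done on subcutaneous white adipose tissue, the fat depot beneath the skin, of C57BL/6 mice aged 8 weeks. All animals carried this 1 strain background. A pair of libraries, vehicle A and vehicle B, came from mice given the solvent DMSO, and a pair, BML-260 A and BML-260 B, from mice given BML-260, which is described as blocking the dual-specificity phosphatase DUSP22. The design text speaks of 8 mice, 4 per treatment, and no label ties mice to the 4 libraries or says whether animals were pooled. Tests therefore rest on the spread between libraries alone, which may be technical. Dose, route and duration of treatment are likewise not given in the sources used here.

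These enzymes remove phosphate from tyrosine residues of proteins through a conserved catalytic cysteine, and so oppose tyrosine kinases. Receptor members span the membrane and pair cytoplasmic catalytic domains with adhesion-like outer parts, while non-receptor members are cytosolic or bound to inner membranes and are directed by SH2, FERM, PDZ and other modules. In adipose tissue the family is best known for the control of insulin, leptin and growth factor signalling, in leukocytes for setting antigen receptor thresholds, and in blood vessels for the control of junctions. They are relatives of DUSP22 within the wider cysteine-based phosphatase class, and the comparison of BML-260 with vehicle asks here whether transcripts of these relatives differed after treatment.

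The median differences of both classes lay near zero. No member passed the test over all genes. Of the 29 tested, 2 members, the receptor gene Ptprs and the non-receptor gene Ptpn3, were higher with BML-260 at an unadjusted p under 0.05. Of all genes tested, 7.45% were. Separately, 4 members of leukocytes, Ptprc, Ptpn6, Ptpn7 and Ptpn22, were more than 2-fold higher in BML-260 A than in any other library. Of all genes tested, 3.45% had that form. For each of these members BML-260 B lay within or close to the vehicle range. For Ptpn1, Ptprk and Ptpro the length implied by the deposited reads and FPKM differed over 1.25-fold between group means without overlap. This held for 2.48% of the genes with enough reads. No other member with enough reads met both of these conditions, and the differences in length were not tested.

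Total expected counts were 19999836 to 23726781 per library. Defining adipocyte markers were abundant, with summed levels of 42325 and 42921 CPM with vehicle against 24970 and 36681 in BML-260 over 10 genes, where CPM stands for TMM-scaled reads of a gene set against the size of each library. Of these 10 markers, 10 were lowest in BML-260 A. Skeletal muscle markers (16 genes, none at 0) summed to 421 and 11449 CPM with vehicle against 32008 and 49343 in BML-260. In bulk tissue, fewer cells of a type and less RNA per cell cannot be told apart.

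The promoters of the 4 leukocyte members and a short stretch of Ptprs are shown. These 5 genes are among those with the patterns described below. For each leukocyte member the 250 bases before the most upstream annotated RefSeq start are given 5′ to 3′ on the strand of the gene (GRCm38.p6), with matches to AGGAAG, the core bound by ETS factors such as PU.1, or to its reverse complement, in capitals. For Ptprs, 30 bases around a match to the palindrome TGACGTCA, the cyclic AMP response element, are given, with the match in capitals.
Ptprc, chr1:138175306-138175555, minus strand: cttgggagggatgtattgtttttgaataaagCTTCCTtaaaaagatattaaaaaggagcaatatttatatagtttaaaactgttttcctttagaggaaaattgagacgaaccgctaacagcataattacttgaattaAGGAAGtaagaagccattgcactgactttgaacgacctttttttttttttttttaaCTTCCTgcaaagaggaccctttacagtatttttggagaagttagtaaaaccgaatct
Ptpn6, chr6:124738710-124738959, minus strand: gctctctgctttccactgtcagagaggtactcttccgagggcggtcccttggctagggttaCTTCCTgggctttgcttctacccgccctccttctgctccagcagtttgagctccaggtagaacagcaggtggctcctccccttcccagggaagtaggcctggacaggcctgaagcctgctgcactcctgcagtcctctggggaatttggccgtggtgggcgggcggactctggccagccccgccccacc
Ptpn7, chr1:135132450-135132699, plus strand: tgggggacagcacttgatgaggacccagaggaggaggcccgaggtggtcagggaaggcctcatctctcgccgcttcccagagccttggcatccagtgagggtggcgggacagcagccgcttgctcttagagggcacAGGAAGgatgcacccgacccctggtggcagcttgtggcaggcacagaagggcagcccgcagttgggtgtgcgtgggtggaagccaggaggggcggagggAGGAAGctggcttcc
Ptpn22, chr3:103859545-103859794, plus strand: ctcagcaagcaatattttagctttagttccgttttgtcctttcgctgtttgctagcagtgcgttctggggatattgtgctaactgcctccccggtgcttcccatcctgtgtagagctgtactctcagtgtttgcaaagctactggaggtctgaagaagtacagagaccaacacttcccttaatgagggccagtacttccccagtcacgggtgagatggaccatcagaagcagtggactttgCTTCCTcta
Ptprs, chr17:56476457-56476486, minus strand: ggcggaaggggTGACGTCAccggctggggg

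The Ptprc window held 3 matches to AGGAAG, the Ptpn7 window 2, and those of Ptpn6 and Ptpn22 held 1 each. Of all 32851 RefSeq windows of this length, 29.5% held at least 1 match and 6.25% at least 2. Among the 32 members with a RefSeq window, 15 held the core before at least 1 of their starts; counted by window, as for all genes, it was 20 of 46 (43.5%). The Ptprs match to TGACGTCA began 5 bases after the first base of the transcript, and Ptpru and Ptpn11 held the same palindrome 41 and 67 bases before the start. It occurred in 1.79% of all windows, here taken from 250 bases before to 50 after a start. The printed Ptprs stretch of 30 bases holds no AGGAAG, but Ptprs held a match outside that stretch, at -105 relative to the start. Ptpn3, which is not printed, held AGGAAG at -137 and no match to TGACGTCA. The motifs were chosen after these sequences and the values of the members had been seen, and a match is a description of the letters only.

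Not all members had enough reads to test. In the receptor class 14 of 21 passed the filter on low counts and in the non-receptor class 15 of 17, so 29 in all. Ptpn5, a brain phosphatase that acts on MAP kinases, had 0 reads in every library. This allows a level of up to 0.126 to 0.150 CPM (3 counts of each total without TMM scaling, counting error only). Ptprh, Ptprq and Ptpn20 had 1 read in a single library each. The vesicle proteins Ptprn and Ptprn2, which lack phosphatase activity and serve hormone secretion, stood at 1 to 20 reads per library, and Ptprt, an adhesion receptor of brain, at 3 to 12. Ptprz1, a receptor of glia that binds pleiotrophin, had 16 and 8 reads in vehicle against 6 and 4 in BML-260. Markers of Schwann cells and nerve summed to 679 and 512 CPM with vehicle against 203 and 349 in BML-260 over 10 genes (Gfap at 0 in vehicle A, and Gfap and Nefl at 0 in BML-260 B), and their part in the Ptprz1 values was not tested. Ptprv, annotated in mouse as a processed transcript, had 5 and 7 reads in vehicle against 31 and 9 in BML-260. It lies head to head with Ptpn7 on chromosome 1 (135108497 to 135132594, minus strand), and like Ptpn7 it was highest in BML-260 A by reads. By FPKM Ptprv was highest in vehicle B, with 0.158 and 1.14 in vehicle against 0.260 and 0.392 in BML-260. The authors' deposited log2 fold change for it is -0.4327.

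Levels between genes were compared on the deposited FPKM, which is per length. In the receptor class Ptpra, a broadly expressed activator of Src kinases, stood highest by mean FPKM, with 31.4 and 28.2 in vehicle against 28.95 and 24.7 in BML-260. Ptprc came second by the mean through BML-260 A alone, with 7.70 and 10.2 FPKM in vehicle, 40.7 in BML-260 A but 8.85 in BML-260 B. Ptprd, a LAR-type adhesion receptor, had 11.7 and 10.1 FPKM in vehicle against 10.1 and 22.2 in BML-260. Ptprb, the vascular endothelial phosphatase that restrains TIE2, had 14.4 and 10.8 FPKM in vehicle against 8.75 and 12.8 in BML-260. Ptprm, a homophilic adhesion receptor, had 13.2 and 11.4 in vehicle against 9.08 and 12.5 in BML-260. The ranges of Ptprd, Ptprb and Ptprm overlapped each other, so their order is not fixed by these libraries.

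In the non-receptor class the deposited FPKM was highest for Ptpn18, a PEST-type phosphatase, with 51.1 and 49.5 in vehicle against 72.3 and 38.5 in BML-260. This rank rests on a short length. Reads, FPKM and library total together imply 282 to 306 bases, whereas the annotated exons of Ptpn18 cover 6492 bases. Whether FPKM was set against full or fragment-corrected lengths, which are shorter, is not given in the sources used here. On CPM per kilobase of annotated exon, Ptpn18, Ptprc and Ptprd left the 5 highest of their classes and Ptpn23, Ptprg and Ptprj entered. Ptpn11, which encodes SHP2 and relays growth factor signals to RAS, came next, with 33.7 and 31.1 FPKM in vehicle against 35.8 and 33.8 in BML-260. Ptpn1 had 14.2 and 17.2 FPKM in vehicle against 26.9 and 20.6 in BML-260. Ptpn6 had 9.60 and 11.7 in vehicle, 32.8 in BML-260 A but 8.92 in BML-260 B. Ptpn12, which acts on focal adhesion proteins, had 14.8 and 12.3 in vehicle against 13.7 and 11.95 in BML-260. The ranges of Ptpn1, Ptpn6 and Ptpn12 overlapped, so their order is not fixed either.

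**Figure D1:**
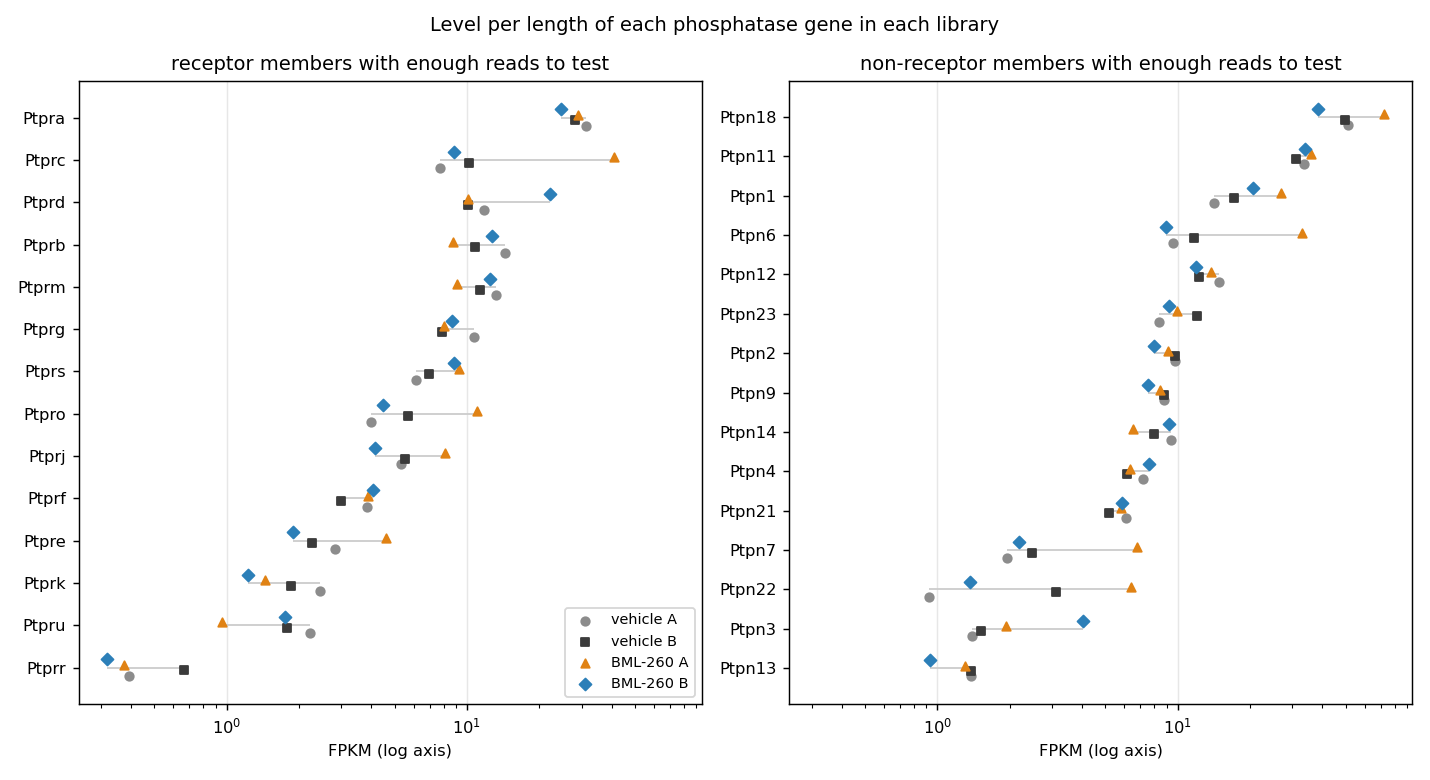
FPKM (log axis) of the 29 members with enough reads to test, receptor class on the left and non-receptor class on the right, sorted by mean. Points are single libraries and grey lines join the lowest and highest; Ptprc and Ptpn6 are spread by BML-260 A, at 40.7 and 32.8 FPKM, and Ptprd by BML-260 B, at 22.2.

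Of the 29 members tested, 0 passed 0.05 after Benjamini-Hochberg adjustment of edgeR's quasi-likelihood test, against 1 of all 15643 genes (0.00639%). At an unadjusted p under 0.05 the test counted 2 members higher, against 7.45% of all genes, and 0 lower, against 3.61% (either direction, 11.1%). DESeq2 also called 0 members at an adjusted p of 0.05, against 2.59% of all genes, with the same 2 at an unadjusted p under 0.05 (10.6% of all genes). The authors' deposited table holds 0 members at an adjusted p under 0.05, against 2.28% of the genes tested here, and the same 2 at an unadjusted p under 0.05, against 10.0%. Both groups were apart, with no overlap, in 7 of 29 members, against 44.3% of all genes.

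The median log2 fold change of the receptor class was 0.01 over 14 members, 8 of them above zero. In the non-receptor class it was 0.10 over 15 members, 10 above zero, and over all genes tested 0.02, with 52.5% above zero. The median size of the log2 fold change was 0.15 over the 29 members and 0.20 over all genes. Without BML-260 A the class medians were -0.10 and -0.04. As a share of all reads, receptor members took 0.0652% and 0.0558% in vehicle and 0.0703% and 0.0551% in BML-260. Non-receptor members took 0.0600% and 0.0573% in vehicle and 0.0657% and 0.0572% in BML-260, so on this scale BML-260 A was the highest library and BML-260 B the lowest in both classes. On TMM-scaled CPM the position of BML-260 B turned. Summed receptor levels were 631 and 556 CPM with vehicle against 677 and 596 in BML-260, and summed non-receptor levels 581 and 571 against 632 and 618, with BML-260 A again highest and vehicle B lowest.

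**Figure D2:**
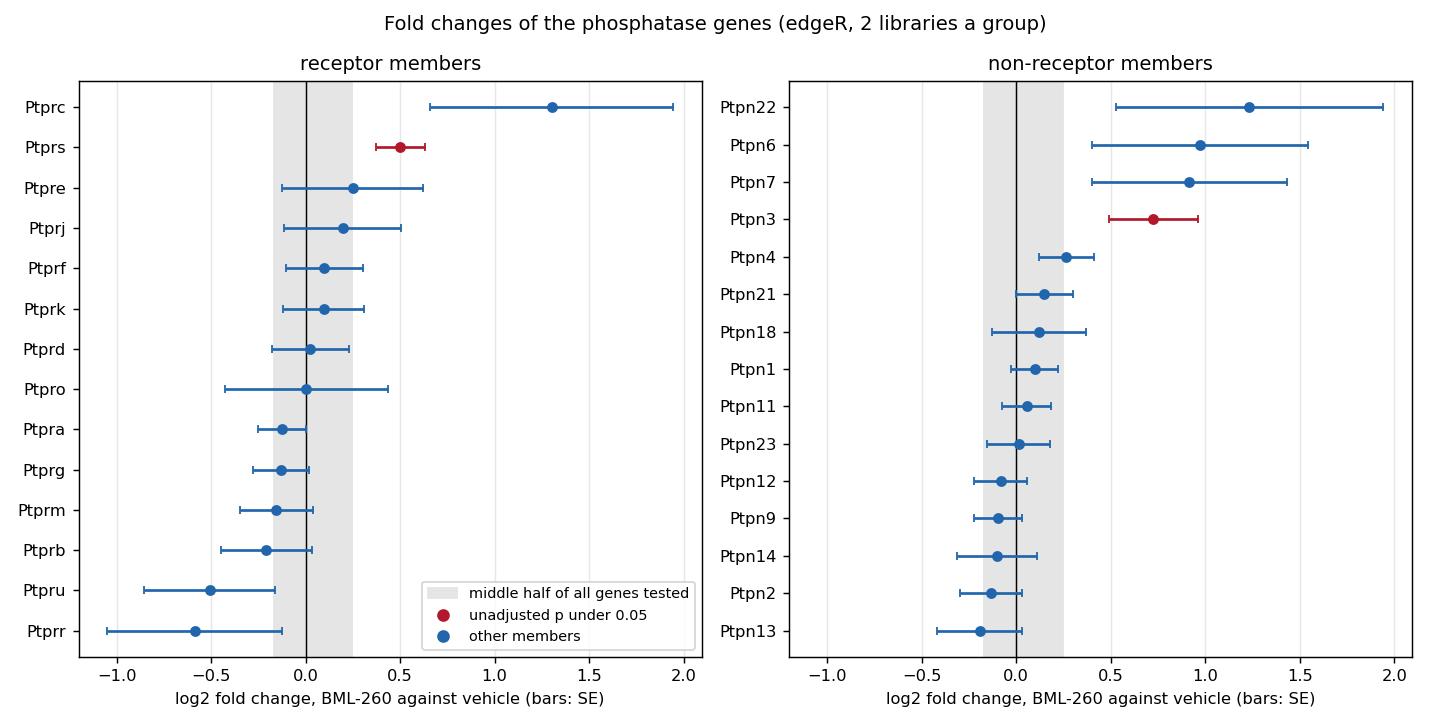
Log2 fold change of each tested member with BML-260 against vehicle, with bars of 1 SE from edgeR, receptor class on the left and non-receptor class on the right. The shaded band is the middle 50% of all 15643 genes tested; Ptprs (0.50) and Ptpn3 (0.73), in red, have an unadjusted p under 0.05, and the wide bars at the top belong to the leukocyte members.

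Ptprs, which encodes PTP sigma, a LAR-type receptor for heparan sulphate and chondroitin sulphate proteoglycans, stood at 37.3 and 43.7 CPM with vehicle against 58.0 and 56.4 in BML-260. Both BML-260 libraries lay above both vehicle libraries, as in 22.9% of all genes tested. Means were 40.5 ± 4.52 CPM for vehicle against 57.2 ± 1.12 for BML-260 (SD, n = 2 each). The log2 fold change was 0.50 (SE 0.13, edgeR adjusted p = 0.349). The value lay between 0.36 and 0.62 with any single library left out. The gene (ENSMUSG00000013236) lies on chromosome 17 at 56412426 to 56476483 on the minus strand of GRCm38 and is protein coding. In the authors' deposited table its log2 fold change is 0.4506 with an adjusted p of 0.2186. Its implied length was close to the same in every library, 6222 to 6303 bases after setting library medians equal. Reads and FPKM therefore gave the same picture.

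The other LAR-type members did not share this form. Ptprf, which encodes LAR itself, a negative regulator of insulin signalling, stood at 27.2 and 19.9 CPM with vehicle against 22.6 and 27.8 in BML-260, log2 fold change 0.10 (SE 0.20). Ptprd stood at 72.1 and 53.6 CPM with vehicle against 55.6 and 72.1 in BML-260, with 0.02 (SE 0.20). In both genes the groups overlapped. Whether Ptprs differed from these relatives was not tested.

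Ptpn3, a FERM and PDZ domain phosphatase of the membrane skeleton, stood at 6.69 and 7.09 CPM with vehicle against 9.53 and 13.3 in BML-260. The groups did not overlap, and the log2 fold change was 0.73 (SE 0.24, edgeR adjusted p = 0.403), or 0.46 to 0.93 with any single library left out. In the authors' deposited table the log2 fold change is 0.5745 with an adjusted p of 0.3841. The gene lies on chromosome 4 at 57190841 to 57301837, minus strand, protein coding, and overlaps Gm12536 on the other strand, whose reads may not be separated from it. Its close relative Ptpn4, with the same domain order, stood at 65.2 and 59.1 CPM with vehicle against 67.3 and 82.1 in BML-260, with log2 fold change 0.27 (SE 0.14, adjusted p = 0.554). Ptpn3 was the only member of the 29 whose levels ascended from vehicle A through vehicle B and BML-260 A to BML-260 B, an order seen in 7.04% of all genes tested. Of the 16 skeletal muscle markers 15 had that same order, and their part in the Ptpn3 values was not tested.

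Ptprc encodes CD45, the phosphatase found on nearly all blood leukocytes, which activates SRC family kinases at antigen receptors. It stood at 32.2 and 43.5 CPM with vehicle, at 151 in BML-260 A but 36.3 in BML-260 B. BML-260 A alone was high, and BML-260 B lay inside the vehicle range. Reads were 679 and 1007 in vehicle against 3130 and 797 in BML-260. The log2 fold change was 1.30 (SE 0.64, edgeR adjusted p = 0.514) and became -0.08 without BML-260 A. The authors' deposited table gives 0.4383 for the same gene, while DESeq2 gave 1.29 here. How the deposited value was computed is not given, so it may not be the same measure. Ptprc lies on chromosome 1 at 138062861 to 138175708, minus strand, protein coding.

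Ptpn6, which encodes SHP1, the inhibitory SH2 phosphatase of blood cells, had 18.1 and 22.6 CPM with vehicle, 62.5 in BML-260 A but 17.6 in BML-260 B. Ptpn7, a lymphoid phosphatase that binds and inactivates ERK and p38, had 4.84 and 6.48 in vehicle, 15.8 in BML-260 A but 5.56 in BML-260 B. Ptpn22, which with the kinase CSK dampens T cell receptor signals, had 2.18 and 4.67 in vehicle, 12.8 in BML-260 A but 3.37 in BML-260 B. Each of the 3 was therefore 2.44 to 2.76 times as high in BML-260 A as in the next highest library, and Ptprc was 3.46 times as high. Of the 29 tested members, 4 were over 2-fold above every other library in BML-260 A, against 3.45% of all genes tested. The 4 were grouped after their values were seen. Their log2 fold changes were 0.97 (SE 0.57) for Ptpn6, 0.92 (SE 0.52) for Ptpn7 and 1.23 (SE 0.71) for Ptpn22, with edgeR adjusted p of 0.564 to 0.577. Without BML-260 A they were -0.23, -0.04 and -0.04.

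Of the members with wider expression that leukocytes also carry, 4 named after their values were seen had the same highest library with smaller gaps. Others did not: Ptpn2 and Ptpn12 were highest in vehicle A, and Ptpn1 and Ptpn11 in BML-260 B. Ptprj, a growth inhibitory receptor of endothelium and macrophages, stood at 35.8 and 38.6 CPM with vehicle against 56.1 and 29.2 in BML-260. Ptpre, a relative of Ptpra, stood at 12.9 and 10.8 in vehicle against 19.1 and 9.02 in BML-260. Ptpro, known from podocytes and macrophages, stood at 9.30 and 10.8 in vehicle against 14.3 and 5.88 in BML-260, and Ptpn18 at 15.1 and 14.4 in vehicle against 19.6 and 12.4 in BML-260. In all 4 genes BML-260 A was highest and BML-260 B lowest. Without BML-260 A their log2 fold changes were -0.37, -0.40, -0.79 and -0.26. In total 10 of 29 members had their highest level in BML-260 A, against 29.7% of all genes tested.

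Relative to Ptprc the members did not move in 1 ratio. Ptpn6 had 0.563 and 0.519 reads per Ptprc read in vehicle against 0.414 and 0.484 in BML-260. Ptpn7 had 0.150 and 0.149 in vehicle against 0.105 and 0.153 in BML-260. Ptprj had 1.11 and 0.886 in vehicle against 0.372 and 0.803 in BML-260, and Ptpre 0.399 and 0.247 in vehicle against 0.127 and 0.248 in BML-260. Ptpro had 0.289 and 0.248 in vehicle against 0.0949 and 0.162 in BML-260. For these genes the ratio was lowest in BML-260 A. Of the genes compared, Ptprc itself stood out most there, at 3.46 times the next highest library. Low ratios in BML-260 A therefore largely follow from dividing by Ptprc. Ptpn22 was the exception, with 0.0677 and 0.107 in vehicle against 0.0850 and 0.0928 in BML-260.

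Markers of B, T and NK cells were highest in the same library as these members, while myeloid markers were mixed. B cell markers summed to 1.95 and 2.68 CPM with vehicle, 196 in BML-260 A but 3.33 in BML-260 B, and 9 of 9 were highest in BML-260 A (Blk and Fcer2a at 0 in vehicle A, Cr2 at 0 in vehicle B). T and NK cell markers summed to 14.3 and 35.0 CPM with vehicle against 167 and 19.6 in BML-260. Of these, 13 of 13 were highest in BML-260 A and none was at 0, but Klrb1c hardly differed (2.50 CPM against 2.46 in vehicle B). Macrophage and other myeloid markers summed to 1986 and 2306 in vehicle against 2854 and 1500 in BML-260, with 7 of 14 highest in BML-260 A and none at 0. The part of these cell types in the values of the members was not tested.

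**Figure D3:**
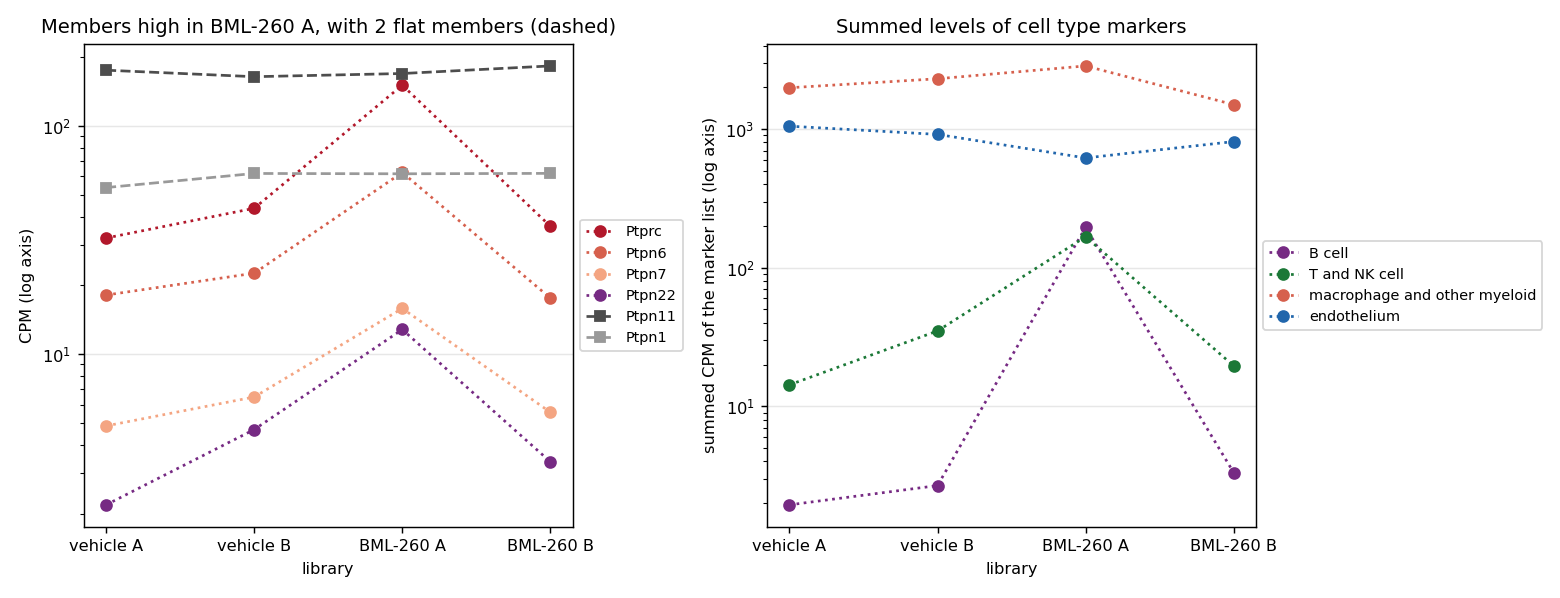
Left, CPM (log axis) of Ptprc, Ptpn6, Ptpn7 and Ptpn22 in each library, with Ptpn11 and Ptpn1 dashed for comparison; right, summed CPM (log axis) of 4 marker lists. Lines only join the values of a gene or list: BML-260 A is the highest library for the 4 members (Ptprc at 151 CPM) and for B cell markers (196) and T and NK cell markers (167), while endothelial markers are lowest there (619).

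In every library but BML-260 A, where Ptprc had more, Ptprb had the largest read count among receptor members. Ptprb stood at 162 and 122 CPM with vehicle against 100 and 146 in BML-260, log2 fold change -0.21 (SE 0.24, edgeR adjusted p = 0.780). The groups overlapped, and without BML-260 A the value was 0.02. Ptprm, also found in endothelium, had the same lowest library, with 68.4 and 60.2 CPM with vehicle against 48.0 and 67.5 in BML-260. Endothelial markers summed to 1049 and 915 CPM with vehicle against 619 and 812 in BML-260, with 9 of 10 lowest in BML-260 A and none at 0, and their part was not tested. Ptprg, a receptor with a carbonic anhydrase-like outer domain, had 64.3 and 51.6 in vehicle against 51.9 and 54.0 in BML-260. Ptpra had log2 fold change -0.12 (SE 0.13).

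Ptpru, an adhesion receptor of the Ptprm type, stood at 10.3 and 9.21 CPM with vehicle against 4.72 and 9.02 in BML-260. Both BML-260 libraries lay below both vehicle libraries, as in 21.5% of all genes tested, but BML-260 B was close to vehicle. Its log2 fold change was -0.51 (SE 0.35, edgeR adjusted p = 0.621), or -0.13 without BML-260 A. Ptprr, which binds MAP kinases, had 18 and 34 reads in vehicle against 17 and 16 in BML-260, so that counting error alone is large.

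The phosphatases best known for insulin and leptin signalling had small differences. Ptpn1 encodes PTP1B, which dephosphorylates the insulin receptor and JAK2, and stood at 53.6 and 61.8 CPM with vehicle against 61.6 and 61.9 in BML-260, log2 fold change 0.10 (SE 0.12, edgeR adjusted p = 0.802). Ptpn2 encodes TC-PTP, its nearest relative, and stood at 13.1 and 13.01 in vehicle against 12.5 and 11.3 in BML-260, with -0.13 (SE 0.16, adjusted p = 0.794). Ptpn11 stood at 175 and 164 in vehicle against 170 and 183 in BML-260, with 0.05 (SE 0.13, adjusted p = 0.900). For Ptpn1 and Ptpn11 the groups overlapped and the means differed by less than the SD between libraries of 1 group; for Ptpn2 the groups were apart by less than 1 CPM. Ptprk and Ptpn11 varied least of the 29 members, with the highest library 1.114 and 1.115 times the lowest, and Ptpn22 most, with 5.87 times.

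Other cytosolic members also lay close in both groups. Ptpn12 stood at 35.0 and 29.2 CPM with vehicle against 31.01 and 29.6 in BML-260. Ptpn9, which binds phospholipids on secretory vesicles, stood at 32.4 and 31.9 in vehicle against 32.1 and 28.1 in BML-260. Ptpn23, an endosomal sorting protein, stood at 33.5 and 44.5 in vehicle against 39.4 and 39.3 in BML-260. The FERM members Ptpn14, a regulator of YAP, and Ptpn21 stood at -0.10 (SE 0.21) and 0.15 (SE 0.15) on the log2 scale of the fold change, while the large scaffold Ptpn13 had -0.19 (SE 0.23). Without BML-260 A, Ptpn14 stood at 0.14.

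For some members the deposited reads and FPKM gave different group differences. Dividing reads by FPKM and library total gives the length that the FPKM rests on. This length depends on the estimated mix of transcripts of the gene and may be shorter than the transcripts themselves. For Ptpn1, FPKM was 14.2 and 17.2 in vehicle against 26.9 and 20.6 in BML-260, while CPM was 53.6 and 61.8 in vehicle against 61.6 and 61.9 in BML-260. The implied length, with library medians set equal, was 3848 and 3588 bases in vehicle against 2303 and 2948 in BML-260, a ratio of group means of 0.706. In limma's test of log2(FPKM + 0.1), Ptpn1 had a difference of 0.59 (adjusted p = 0.383), against 0.10 for reads.

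Ptprk, an adhesion receptor of the Ptprm type, went the other way. Its CPM was 6.27 and 6.05 in vehicle against 6.74 and 6.42 in BML-260, but its FPKM was 2.46 and 1.85 in vehicle against 1.45 and 1.23 in BML-260. The implied length was 2605 and 3255 bases in vehicle against 4683 and 5122 in BML-260, a ratio of 1.67. On log2(FPKM + 0.1) its difference was -0.64 (limma adjusted p = 0.496), against 0.10 for reads, so the direction turned with the unit. Ptpro had implied lengths of 2378 and 1884 in vehicle against 1309 and 1288 in BML-260, a ratio of 0.609.

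These 3 of the 26 members with at least 100 reads in every library had group means over 1.25-fold apart with no overlap, against 2.48% of 10733 genes. Ptprd and Ptpn3 differed in BML-260 B alone. Ptprd had implied lengths of 6264, 5274 and 5544 bases in vehicle A, vehicle B and BML-260 A but 3178 in BML-260 B. Ptpn3 had 4915, 4635 and 4966 bases in the same order and 3219 in BML-260 B. Together 5 of 26 members had a range over 1.5-fold between libraries, against 4.21% of genes, while Ptpn6 and Ptprm stayed within 1.01 times. Reads of single transcripts were not analysed here, so which transcripts were involved was not measured.

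**Figure D4:**
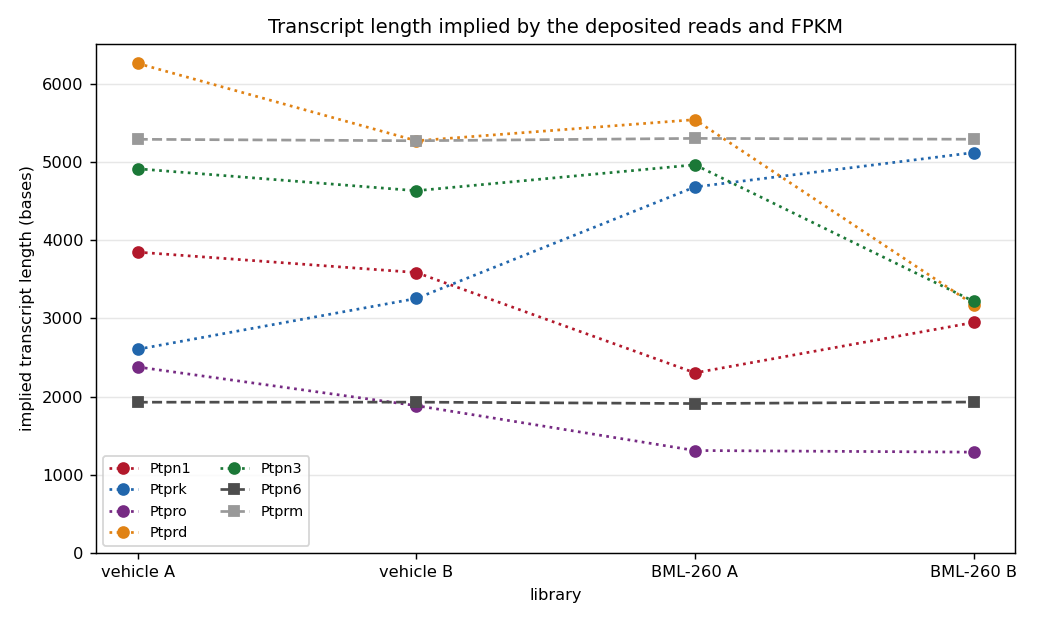
Length (bases) implied by the deposited reads and FPKM in each library, with the median length of all genes set equal between libraries. Lines only join the values of a gene: Ptpn1 and Ptpro are shorter and Ptprk longer in both BML-260 libraries, Ptprd (3178) and Ptpn3 (3219) are short in BML-260 B alone, and Ptpn6 and Ptprm (dashed) hardly differ.

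Genes that work with the phosphatases were listed by role; beside the counts at an unadjusted p under 0.05 in these lists stand 7.45% of all genes higher and 3.61% lower. Of 17 receptor tyrosine kinases, which these enzymes oppose, 0 passed the edgeR test over all genes, with 0 higher and 2 lower by an unadjusted p under 0.05, and a median log2 fold change of -0.14. The lower ones were the growth factor receptor genes Pdgfrb (-0.33, SE 0.11) and Fgfr1 (-0.40, SE 0.14). Of 21 tested cytosolic tyrosine kinases and their regulators 0 passed, with 2 higher and 0 lower at that unadjusted p and a median of 0.34. Jak2, a kinase that PTP1B acts on, stood at 37.3 and 33.0 CPM with vehicle against 52.4 and 46.6 in BML-260 (0.49, SE 0.13, edgeR adjusted p = 0.359). The myeloid kinase gene Fgr stood at 1.57 and 1.73 CPM with vehicle against 10.1 and 2.60 in BML-260 (1.94, SE 0.67), so BML-260 A stood highest. Ptk2b, a focal adhesion type kinase, had 0.54 (SE 0.23) and was also highest there, at 48.1 CPM.

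Of 28 docking proteins, adaptors and receptors that recruit SH2 phosphatases, 0 passed, with 5 higher and 1 lower by an unadjusted p under 0.05, and a median of 0.37 (all genes, 7.45% higher and 3.61% lower). Among the higher ones, the B cell receptor partner Cd22 stood at 0.285 and 0.562 CPM with vehicle against 33.9 and 0.638 in BML-260, and Lilr4b at 13.5 and 20.9 against 56.1 and 25.1, both highest in BML-260 A and named after their values were seen. Irs2, an insulin receptor substrate, stood at 39.5 and 47.8 CPM with vehicle against 75.2 and 67.6 in BML-260 (0.71, SE 0.14, edgeR adjusted p = 0.292). Pstpip2, an adaptor that binds PEST-type phosphatases, stood at 2.28 and 4.93 in vehicle against 10.8 and 11.5 in BML-260 (1.63, SE 0.39), and Pecam1, an endothelial adhesion receptor that recruits SHP2, had -0.39 (SE 0.13). Of 24 tested ligands and partners of receptor members 0 passed, with 1 higher and 2 lower and a median of -0.11. Gpc1, a heparan sulphate proteoglycan of the kind that Ptprs binds, stood at 16.8 and 25.8 CPM with vehicle against 68.3 and 76.2 in BML-260 (1.76, SE 0.23, edgeR adjusted p = 0.241). Ppfibp1, a liprin, had -0.33 (SE 0.11) and the growth factor gene Mdk, a ligand of Ptprz1, had -1.10 (SE 0.41).

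Of 15 tested cysteine-based phosphatases outside the classical family, DUSP22 included, 0 passed, with 6 higher and 1 lower by an unadjusted p under 0.05, and a median of 0.35 (all genes, 7.45% higher and 3.61% lower). Dusp22 itself stood at 35.0 and 35.0 CPM with vehicle against 33.2 and 36.1 in BML-260 (-0.01, SE 0.12). The membrane-tethered phosphatase Ptp4a3 stood at 47.4 and 74.9 CPM with vehicle against 120 and 130 in BML-260 (1.03, SE 0.23, edgeR adjusted p = 0.323). Its relative Ptp4a2 had 0.48 (SE 0.14), and the cell cycle phosphatase gene Cdc25b had 0.43 (SE 0.13). Gpc1, Pstpip2 and Ptp4a3 ascended from vehicle A through vehicle B and BML-260 A to BML-260 B. Of the 16 skeletal muscle markers 15 had this order, and 7.04% of all genes tested. Irs2, Jak2, Ptp4a2 and Cdc25b did not have it. The muscle and leukocyte marker values given above apply to these lists too, and their part was not tested.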

How the data were processed

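The authors deposited 1 table with expected counts per gene in 4 libraries, estimated counts that need not be whole and are not normalized, with FPKM values per library, per the file headers. It also holds group means as deposited, also on a log2 scale, and the authors' own log2 fold change, p-value and adjusted p-value. Build GRCm38.p5, RSEM 1.2.31, HISAT2 2.1.0 and DESeq2 1.10.1 are listed, without role, per the submitters' processing notes. Annotation, strand setting and filters are not given in the sources used here; counts of overlapping and antisense genes are uncertain.

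Expected counts were rounded. After filterByExpr 15643 genes were left, and edgeR 4.0.16 (R 4.3.3) fitted its quasi-likelihood model with TMM factors and a group term alone; tests were two-sided, with Benjamini-Hochberg adjustment over all genes and a threshold of 0.05. Residual degrees of freedom numbered 2 and the biological coefficient of variation was 23.0%. SE is the size of the log2 fold change over the root of F. CPM is TMM-scaled. Implied lengths used genes with at least 100 reads in every library. The tests were tried on simulated data. Alternatives were DESeq2 1.42.0, limma 3.58.1 on voom values and on log2(FPKM + 0.1), other factors and filters, leaving out each library, and the library letter as a block. Coordinates are from GENCODE vM21.

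Named in full were members at an unadjusted p under 0.05, the 5 highest by FPKM per class, and Ptpn1, Ptpn2, Ptpn6, Ptpn11, Ptprc, Ptprb and Ptprf, with up to 3 genes of smallest p per partner list; other members, Dusp22 and implied lengths were added after seeing values. Members and lists were chosen with earlier results of these data known.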

Additional observations from a re-analysis of the deposited data

How the results depend on the processing

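The members called stayed at 0 under every alternative run. The number of genes called over the whole table was 405 with DESeq2, 651 with a filter of at least 1 count in total, 0 with the replicate block and 0 to 309 with a library left out (0 without vehicle A, 309 without vehicle B, 5 without BML-260 B). Fits without a library assume that the lone library varies like the other group, and fewer samples bear on each. With limma-voom, RLE factors, library totals, at least 1 CPM in 2 libraries, log2 FPKM and without BML-260 A it was 1. No label says whether the letters pair the libraries. Deviations from the group means correlated at -0.059 over 15643 genes, which shows no pairing but, with so few libraries, cannot exclude it. The median of all genes was -0.035 with library totals, 0.031 with at least 1 count, -0.0068 with at least 1 CPM in 2 libraries, -0.010 on log2 FPKM and -0.020 to 0.014 without a library. Class medians ranged from -0.13 to 0.052 (receptor) and from -0.041 to 0.080 (non-receptor) without a library, and were -0.047 and 0.084 with the block. Ptpro (0.0034) turned to -0.0048 with DESeq2, -0.15 with limma-voom, -0.0054 with RLE factors, -0.016 with library totals, -0.0029 with at least 1 count, -0.019 with at least 1 CPM and -0.12 with the replicate block. Library totals turned Ptprd to -0.042, Ptpn11 to -0.0019 and Ptpn23 to -0.037; at least 1 CPM turned Ptpn23 to -0.0068; and log2 FPKM turned Ptpn23 to -0.068 and Ptprk to -0.64. The causes of these turns were not tested. Directions turned with a library left out, with the lowest and highest log2 fold change, for Ptprg (-0.28 to 0.010), Ptpro (-0.79 to 0.50), Ptpn1 (-0.029 to 0.20), Ptpn12 (-0.21 to 0.025), Ptpn23 (-0.20 to 0.23), Ptprd (-0.18 to 0.23), Ptprf (-0.11 to 0.31), Ptprc (-0.075 to 1.99), Ptprb (-0.51 to 0.024), Ptprm (-0.43 to 0.056), Ptprj (-0.37 to 0.59), Ptpre (-0.40 to 0.69), Ptpn18 (-0.26 to 0.41), Ptpn6 (-0.23 to 1.61), Ptpn14 (-0.42 to 0.14), Ptpn7 (-0.042 to 1.48), Ptpn22 (-0.041 to 1.89), Ptpn11 (-0.006 to 0.095), Ptpn13 (-0.44 to 0.002). Leaving out BML-260 A turned 12 of 29. Depth limits Ptprr and the 9 members not tested.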
